A study of Mus musculus with 12 samples.

Results

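Transcripts of the NR4A nuclear receptors Nr4a1, Nr4a2 and Nr4a3 and of the G protein regulators Rgs2 and Rgs16 were examined in 4T1, a line of mouse mammary carcinoma cells, cultured in 3D gels of collagen I. These 5 genes, of 31017 in the deposited table, were chosen by their measured fold changes with FGF (Rgs2, Nr4a1 and Nr4a2 lower, Rgs16 higher), with Nr4a3 added as the remaining NR4A gene; 4 of the 5 passed the filter on low counts, and Nr4a3 did not. RNA came from 12 libraries in 4 groups of 3. The groups were ETV4 knockout with FGF, control with FGF, ETV4 knockout without FGF and control without FGF. Every culture received Cas9 by nucleofection, with an ETV4 guide RNA in knockout cells and a control guide RNA in control cells. ETV4 belongs to the PEA3 group of ETS transcription factors. FGF cultures received 25 ng/ml FGF10 together with 40 ng/ml FGF2; they were seeded in 10% serum and moved the next day to 2% serum for 4 days. All groups are labelled 2% serum, and the seeding serum of cultures without FGF is not stated. Either of the collagen densities 1.2 and 2.4 mg/ml was used, with no density assigned to a library. Before RNA extraction every gel was digested with collagenase at 37 °C for 10 and then 5 minutes. The names of all 6 knockout libraries carry the tag C39, which the labels do not explain, so whether the knockout was 1 clone is not known, and a clone's own features and the knockout cannot be told apart.

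The NR4A proteins are orphan nuclear receptors that need no known hormone; their activity follows mainly how much of them a cell makes. Their genes are immediate early genes, switched on within minutes by cAMP, calcium, growth factors or cell stress, in part through CREB, a factor that protein kinase A phosphorylates when cAMP is high. RGS proteins end signalling from G protein-coupled receptors by making the G protein alpha subunit hydrolyse GTP faster. Rgs2 acts mainly on Gq and Rgs16 on Gi and Gq, and Rgs2 is itself a cAMP-inducible gene in several cell types.

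Library totals ran from 18229429 to 23193244 counts. CPM values are counts relative to library size, scaled by edgeR's TMM method to a common unit (CPM), and CPM per kb divides them by exon length. The targeted gene, Etv4, had 115, 120 and 113 CPM in knockout cells with FGF, 154, 173 and 167 CPM in control cells with FGF, 116, 159 and 116 CPM in knockout cells without FGF, and 168, 162 and 167 CPM in control cells without FGF. It was detected in every library and was lower by 0.51 (SE 0.11) with FGF and 0.35 (SE 0.11) without FGF on the log2 scale, with adjusted p = 0.00204 and 0.0173 by edgeR. The call without FGF was lost on leaving out the first control library or the first or last Etv4_KO library (replicates 1, 1 and 3; adjusted p = 0.0514, 0.0661 and 0.0667 by edgeR). The 50 tested genes around Etv4 had median differences of log2 -0.47 with FGF and -0.42 without FGF. Of these neighbours 37 were called lower and 1 higher with FGF, and 29 lower and 1 higher without FGF. Over all genes 22.2% and 23.3% were called lower, in that order. With FGF 24 of the 50 lay lower than Etv4 itself, and without FGF 29 did. The fall of Etv4 thus did not stand out from that of its region. A guide can change the protein and leave the transcript, so these values are a weak check of the labels. In Etv4 level alone, the library labelled Etv4_KO replicate 2, at 159 CPM, lay close to the control libraries. Principal components placed it elsewhere. Along component 1 (71.4% of variance) it scored 46.5, on the side of the other knockout libraries (39.3 to 43.4). Control libraries scored -45.3 to -39.6 there. Component 2 (10.4%) set it apart from all other libraries. Its chi-square per degree of freedom was 69.5 or more against the other knockout libraries without FGF, where other replicate pairs gave 3.26 to 11.2. Counts of called list genes are also given without this library where they moved by over 1.5 times. The 5 epithelial markers Epcam, Cdh1, Krt8, Krt18 and Krt14 summed to 3020 to 3130 CPM per library in knockout cells with FGF, 3800 to 4250 CPM in control cells with FGF, 3350 to 4720 CPM in knockout cells without FGF and 3760 to 3880 CPM in control cells without FGF. They were thus lowest in knockout cells with FGF, and their part in the results was not tested. Of 5 fibroblast markers, Pdgfrb, Dcn and Lum had no count in any library and the list summed to 15.9 CPM or less; 6 leukocyte markers summed to 11.5 CPM or less, with Adgre1 and Cd3e at 0, and 4 endothelial markers to 0.748 CPM or less, with Kdr at 0. In bulk RNA, fewer cells making a transcript and less of it per cell cannot be told apart.

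The 250 bases before the RefSeq start are shown first for the genes that passed the filter, because CREB sites can lie in such promoter sequence. The sequences are from RefSeq on GRCm38.p6, the assembly of mm10, read 5′ to 3′ on the strand of the gene; all 5 genes matched by symbol. Capitals mark every TGACG, the core of the cAMP response element, and its reverse complement CGTCA.
Nr4a1, chr15:101266596-101266845, plus strand: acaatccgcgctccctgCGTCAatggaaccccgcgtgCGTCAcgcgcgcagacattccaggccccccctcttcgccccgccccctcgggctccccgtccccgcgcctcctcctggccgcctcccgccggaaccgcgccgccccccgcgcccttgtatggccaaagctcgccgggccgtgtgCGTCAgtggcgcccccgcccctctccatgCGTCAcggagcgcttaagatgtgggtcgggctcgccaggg
Nr4a2, chr2:57124004-57124253, minus strand: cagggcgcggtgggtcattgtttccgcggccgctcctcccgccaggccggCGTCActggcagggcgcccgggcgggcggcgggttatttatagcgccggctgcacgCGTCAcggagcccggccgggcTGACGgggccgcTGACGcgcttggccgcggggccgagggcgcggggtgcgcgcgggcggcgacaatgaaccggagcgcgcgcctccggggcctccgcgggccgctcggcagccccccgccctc
Rgs2, chr1:144004150-144004399, minus strand: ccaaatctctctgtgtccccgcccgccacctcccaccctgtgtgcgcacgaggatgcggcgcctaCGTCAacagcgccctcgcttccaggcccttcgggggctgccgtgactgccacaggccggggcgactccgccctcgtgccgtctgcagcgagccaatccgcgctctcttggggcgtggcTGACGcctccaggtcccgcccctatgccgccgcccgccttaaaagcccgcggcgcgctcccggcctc
Rgs16, chr1:153740103-153740352, plus strand: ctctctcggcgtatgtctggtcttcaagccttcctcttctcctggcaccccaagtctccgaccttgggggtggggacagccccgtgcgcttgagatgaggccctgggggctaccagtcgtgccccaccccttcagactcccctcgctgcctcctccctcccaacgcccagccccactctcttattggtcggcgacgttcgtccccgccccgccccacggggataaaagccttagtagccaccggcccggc
Nr4a1 and Nr4a2 each held 4 cores, Rgs2 held 2 and Rgs16 held 0. In Nr4a1 all 4 lay in the CGTCA orientation, with first bases 233, 213, 69 and 40 bases before the start. In Rgs2 the cores began 185 and 67 bases before it. Nr4a3, not printed, also held 4 cores. Of 32851 RefSeq promoter windows of the same length, 17.8% held at least 1 core on either strand, 3.9% at least 2 and 0.137% at least 4. The windows of these genes are rich in G and C, at 80% for Nr4a2, 74.4% for Nr4a1, 72.4% for Rgs2, 66.4% for Rgs16 and 63.6% for Nr4a3. In that order they exceeded 98.8%, 95.4%, 93.6%, 85.2% and 80% of promoters. The core itself holds the letters CG, and no share among windows equally rich in G and C was computed. The numbers of cores are therefore not read as unusual for such windows. The full element TGACGTCA (in 1.55% of windows), the AP-1 element TGANTCA (6.75%) and the CArG box bound by SRF (1.47%) were in none of the 5 windows. All motifs were searched on both strands, and the full element contains the core. A match is a letter match in this window and does not show that a factor binds there. Whether the cores have a part in the FGF fold changes was not tested.

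**Figure D1:**
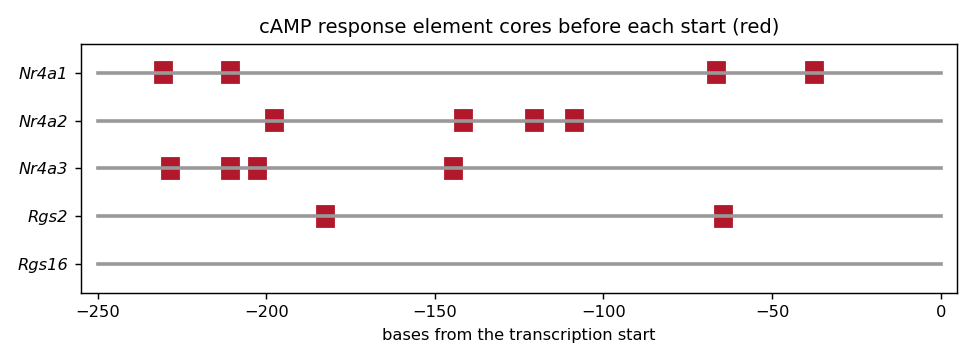
Position of cAMP response element cores (red boxes, either strand) in the 250 bases before the transcription start of each gene; the x axis is the distance from the start in bases. Nr4a1, Nr4a2 and Nr4a3 have 4 cores each, Rgs2 has 2 and Rgs16 has 0.

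The genes lie on 4 chromosomes (mm10, GENCODE vM21 models, which span all transcripts of a gene). The RefSeq starts used for the promoter windows differ from the outer ends of these models: that of Nr4a1 lies well inside its model, and the windows of Nr4a3, Rgs2 and Rgs16 overlap the start of theirs. Nr4a1 is on chromosome 15 from 101254269 to 101274795, Nr4a2 on chromosome 2 from 57106830 to 57124003, and Nr4a3 on chromosome 4 from 48045153 to 48086447. Rgs2 (143999338 to 144004161) and Rgs16 (153740349 to 153745468) are both on chromosome 1, with Rgs16 the 22nd tested gene after Rgs2. In the longest annotated 3′ UTR the pentamer ATTTA, a letter pattern found in many short-lived messages, occurred 3 times in 543 bases of Nr4a1, a density of 5.52 per kb. That density was above that of 95.3% of 17951 genes, whose median was 1.49 per kb. Densities in the other members were 2.48 for Rgs16, 2.26 for Nr4a2, 2.13 for Rgs2 and 1.62 per kb for Nr4a3.

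Rgs16 and Nr4a1 were abundant, Nr4a2 and Rgs2 were of middle level, and Nr4a3 was close to absent. In control cells without FGF, levels were 106 ± 8.45 CPM per kb for Rgs16, 45.9 ± 2.68 for Nr4a1, 10.1 ± 0.871 for Nr4a2, 7.92 ± 0.485 for Rgs2 and 0.0505 ± 0.0248 CPM per kb for Nr4a3 (SD, n = 3 each). Rgs16 lay above 96.8% of 11955 tested genes per kb in these cells, and Rgs2 above 54.4%. With both ETV4 knockout and FGF the span had widened: Rgs16 lay above 98.8% of tested genes and Rgs2 above 15.4%.

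As a ratio of the highest to the lowest library, Rgs2 varied most among the tested members. It had 2.85, 3.01 and 2.32 CPM in knockout cells with FGF, 7.24, 4.95 and 6.05 CPM in control cells with FGF, 6.92, 7.73 and 5.47 CPM in knockout cells without FGF, and 27.9, 27.5 and 30.7 CPM in control cells without FGF. Control cells without FGF were high, the doubly altered cells were low, and the 2 middle groups, knockout alone and FGF alone, overlapped. The counts behind these values were 47 to 61 per library in the lowest group and 582 to 617 in the highest.

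Nr4a2, the receptor also called Nurr1, followed a similar order. It had 9.54, 9.89 and 11.3 CPM in knockout cells with FGF, 11.3, 11.1 and 12.2 CPM in control cells with FGF, 23, 15.2 and 20.6 CPM in knockout cells without FGF, and 41.6, 43.9 and 37 CPM in control cells without FGF. The 2 FGF groups overlapped, both lay below the knockout cells without FGF, and those lay below the control cells without FGF. The value of 15.2 CPM belongs to Etv4_KO replicate 2.

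Nr4a1, also called Nur77, kept its groups apart in a different order. It had 76.7, 89.7 and 84.4 CPM in knockout cells with FGF, 57, 53.7 and 66.8 CPM in control cells with FGF, 140, 130 and 125 CPM in knockout cells without FGF, and 165, 168 and 150 CPM in control cells without FGF. None of these 4 groups overlapped, and the lowest was control cells with FGF, not the knockout cells with FGF.

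Rgs16 ran the opposite way. It had 612, 707 and 652 CPM in knockout cells with FGF, 504, 548 and 516 CPM in control cells with FGF, 427, 553 and 420 CPM in knockout cells without FGF, and 240, 233 and 270 CPM in control cells without FGF. The highest group stood apart and so did the lowest; control cells with FGF and knockout cells without FGF overlapped through Etv4_KO replicate 2, at 553 CPM. An annotated antisense gene, Gm28513, overlaps Rgs16, and the strand setting of the counting is not given in the sources used here. It held 2 to 15 counts per library, where Rgs16 held at least 4926.

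Nr4a3, the receptor also called NOR1, had 0 to 10 counts per library. Its counts per group were 14 in knockout cells with FGF, 14 in control cells with FGF, 13 in knockout cells without FGF and 19 in control cells without FGF. As CPM with exact 95% Poisson intervals, which cover counting error only, these were 0.231 (0.126 to 0.388), 0.216 (0.118 to 0.363), 0.225 (0.12 to 0.384) and 0.304 (0.183 to 0.475). All 4 intervals overlap, and no difference was detectable at this depth. Fitted without a filter on low counts, its genotype difference was log2 -0.46 (SE 0.93) without FGF and 0.07 (SE 0.95) with FGF, with an edgeR adjusted p = 0.78 and 1.

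**Figure D2:**
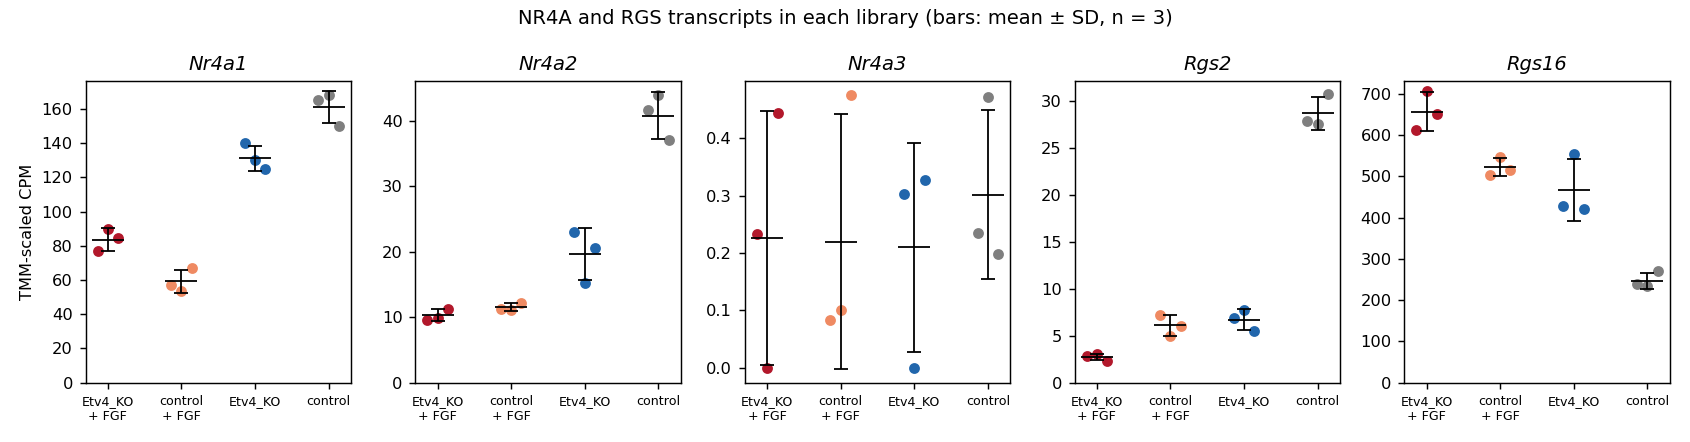
TMM-scaled CPM (y axis, a separate linear scale for each gene) in the 3 libraries of each group (points), with mean ± SD (black). Rgs2 and Nr4a2 are highest in control cells without FGF, Rgs16 is lowest there, and Nr4a3 stays at or under 0.476 CPM.

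The genotype comparison without FGF asks what differed with the ETV4 guide in the absence of FGF. This contrast did not itself choose the genes, but it shares libraries with the FGF comparisons that did. The same holds for the genotype comparison with FGF, so the p-values of members in both are not independent of that choice. Values with ± here and below are means and SD of 3 libraries per group. Rgs2 fell to 6.7 ± 1.15 CPM in knockout cells, against 28.7 ± 1.76 CPM in control cells (log2 -2.10, SE 0.15, by edgeR, adjusted p = 2.54e-07). Nr4a2 fell to 19.6 ± 3.96 CPM in knockout cells, against 40.8 ± 3.53 CPM in control cells (log2 -1.06, SE 0.13, by edgeR, adjusted p = 3.59e-05). These decreases were 4.3-fold and 2.08-fold. Rgs16 rose to 467 ± 75.1 CPM in knockout cells, against 247 ± 19.8 CPM in control cells (log2 0.92, SE 0.10, by edgeR, adjusted p = 1.69e-05). Without Etv4_KO replicate 2 these 3 differences were log2 -2.22, -0.91 and 0.78 and were still called. Nr4a1 fell least, to 131 ± 7.55 CPM in knockout cells, against 161 ± 9.39 CPM in control cells (log2 -0.29, SE 0.09, by edgeR, adjusted p = 0.0201). That call depended on single libraries: the adjusted p was 0.0651, 0.0748 and 0.0614 without control replicate 1, control replicate 2 or Etv4_KO replicate 3, at log2 -0.27, -0.26 and -0.26. All 4 tested members were thus called, 3 lower and 1 higher, in a comparison that called 45.8% of 12079 genes, 22.5% higher and 23.3% lower; with so large a background the count of members is no result about them.

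The same comparison with FGF present gave a different set of values. Rgs2 was again lower, at 2.73 ± 0.364 CPM in knockout cells and 6.08 ± 1.14 CPM in control cells (log2 -1.16, SE 0.18, by edgeR, adjusted p = 0.000206). Nr4a1 was higher, at 83.6 ± 6.53 CPM in knockout cells and 59.2 ± 6.81 CPM in control cells (log2 0.50, SE 0.09, by edgeR, adjusted p = 0.000969). This is the opposite direction to that without FGF, and the 3 knockout libraries lay above the 3 control libraries here and below them there. Rgs16 was 657 ± 47.8 CPM in knockout and 522 ± 22.4 CPM in control cells (log2 0.33, SE 0.10, by edgeR, adjusted p = 0.0211). Its call was lost without control_FGF replicate 1 or 3 or Etv4_KO_FGF replicate 2 or 3 (log2 0.31, 0.32, 0.28 and 0.34, with an edgeR adjusted p = 0.0738, 0.0641, 0.0909 and 0.0518) and with upper-quartile scaling (log2 0.28, by edgeR, adjusted p = 0.0528). Nr4a2 did not pass, at 10.3 ± 0.957 CPM in knockout and 11.5 ± 0.598 CPM in control cells (log2 -0.17, SE 0.14, by edgeR, adjusted p = 0.38), and its groups overlapped. Of the 4 tested members 3 were called, 2 higher and 1 lower, against a background of 40.3% of genes, 18% higher and 22.2% lower.

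The comparison of FGF with no FGF chose these genes, so its fold changes are described without a test. In control cells the ratio of FGF to no FGF was 0.213 for Rgs2 (log2 -2.23, SE 0.15), 0.282 for Nr4a2 (log2 -1.83, SE 0.14), 0.367 for Nr4a1 (log2 -1.44, SE 0.09) and 2.11 for Rgs16 (log2 1.08, SE 0.10). In knockout cells each ratio was nearer to 1: 0.409 for Rgs2 (log2 -1.29, SE 0.18), 0.522 for Nr4a2 (log2 -0.94, SE 0.14), 0.636 for Nr4a1 (log2 -0.65, SE 0.09) and 1.41 for Rgs16 (log2 0.49, SE 0.10). Directions were thus shared between genotypes, and FGF and no-FGF libraries did not overlap for any of these 4 genes in either genotype. The choice of the genes favoured such separation, and the share of all genes separated in this way was not counted. The FGF response in knockout minus that in control cells was log2 0.94 (SE 0.24) for Rgs2, 0.89 (SE 0.19) for Nr4a2, 0.79 (SE 0.13) for Nr4a1 and -0.58 (SE 0.15) for Rgs16. It holds the contrast that chose the genes, so it has no test. Without Etv4_KO replicate 2 the value for Rgs16 was -0.44 and that for Nr4a2 was 0.74, and the FGF fold change of Rgs16 in knockout cells was log2 0.64. The FGF comparison called 0.488% of genes in control cells (0.257% higher, 0.232% lower) and 2.42% in knockout cells (1.47% higher, 0.944% lower), and since it chose the members nothing is read from their place in it.

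**Figure D3:**
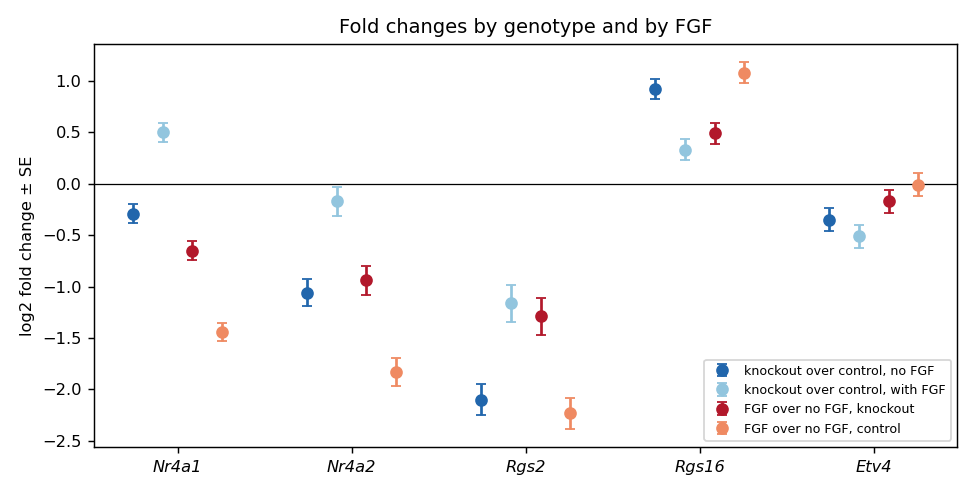
Log2 fold change ± SE (y axis) of the 4 tested members and of Etv4 for the genotype comparison without and with FGF (dark and light blue) and for FGF in knockout and control cells (red and orange). Nr4a1 lies below 0 without FGF and above 0 with FGF in the genotype comparison; each member's FGF response is nearer to 0 in knockout than in control cells.

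Each member was set beside the genes around it on its chromosome. The 50 tested neighbours of a gene (25 on each side) had median genotype differences without FGF of log2 -0.26 around Rgs2, -0.26 around Rgs16, -0.08 around Nr4a2 and 0.07 around Nr4a1. Of the Rgs2 neighbours, 18 fell and 5 rose, and 3 lay lower than Rgs2 itself. Of the Rgs16 neighbours 22 fell and 6 rose, so Rgs16 differed in direction from most called genes around it; Rgs2 is 1 of them. For FGF in control cells the neighbours' medians were log2 -0.00 around Rgs2, 0.02 around Rgs16, -0.10 around Nr4a2 and -0.02 around Nr4a1. That comparison chose the members, so their place among these neighbours is not read. What part the surrounding regions have in the genotype differences was not tested.

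**Figure D4:**
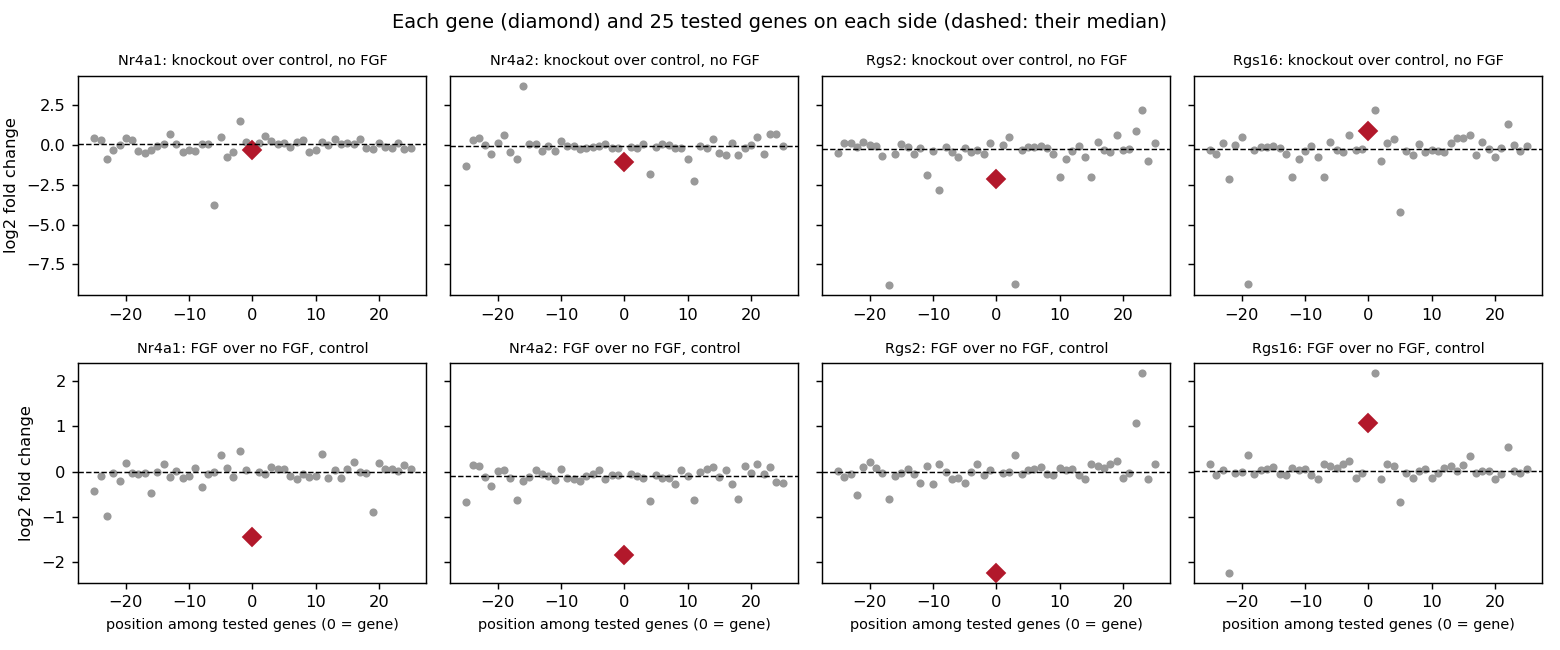
Log2 fold change (y axis) of each member (red diamond) and of the 25 tested genes on each side of it in chromosome order (grey points; dashed line, their median), for knockout over control without FGF (top) and FGF over no FGF in control cells (bottom). In the top row 3 of 50 neighbours lie lower than Rgs2 and 2 lie higher than Rgs16; the bottom row is the comparison that chose the members, so their place there was set by that choice.

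Likeness of pattern was measured as the Pearson correlation of log2 CPM over the 12 libraries, among 10091 named genes with a mean of at least 1 on the log2 CPM scale. It is a description: the libraries form 4 groups and share their scaling, so no p is given. The members were also chosen for moving with FGF, which in part sets their correlations with each other and with other FGF-responsive genes. The genes most like Nr4a1 were Klf4 (r = 0.968), Fosb (0.962), Prom2 (0.942), Cxcl5 (0.928) and Fos (0.921); Fos and Fosb encode AP-1 subunits and Klf4 a zinc finger factor, and all 3 are immediate early genes. Those most like Nr4a2 were Sik1 (0.977), a CREB-induced kinase that restrains CREB's coactivators, Cxcl5 (0.949), the kinase gene Sgk1 (0.942), Fosb (0.934) and the transcription factor gene Osr2 (0.926). Rgs2 was most like Osr2 (0.979), the cytokine signalling inhibitor Socs3 (0.958), Bcl9l (0.948), Eif4b (0.943) and Ppl (0.941). Rgs16 was most like the cell cycle inhibitor Cdkn1a (0.962), the claudin Cldn4 (0.948), Ggct (0.934), the cyclin Ccnd1 (0.919) and Clptm1l (0.918). By Spearman's rank correlation all 5 genes named for Nr4a1 remained within the first 12, and all 5 for Nr4a2 within the first 10, while Ppl ranked 141st for Rgs2 and Ccnd1 116th for Rgs16. Among the members r was 0.911 for Nr4a2 with Rgs2, 0.864 for Nr4a1 with Nr4a2 and 0.67 for Nr4a1 with Rgs2. Rgs16 had r = -0.967 with Nr4a2, -0.951 with Rgs2 and -0.725 with Nr4a1.

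The rest of the cAMP and G protein machinery was read from lists, without the members, and tested over all genes with edgeR. With FGF in control cells, genes that make, break down or transmit cAMP were not called. The FGF comparison called 0.488% of 12079 genes in control cells and 2.42% in knockout cells. At such shares, 0 calls in lists this short are no result about them. Counts were 0 of 10 adenylyl cyclases and phosphodiesterases, 0 of 18 protein kinase A and CREB genes, 0 of 17 G protein subunits and 0 of 10 other RGS genes. At an unadjusted p under 0.05 these lists held 0, 1, 0 and 1 genes, and DESeq2 and limma-voom also called 0 in each. In knockout cells edgeR again called 0 of each list with FGF, with 5, 6, 4 and 3 at an unadjusted p under 0.05; DESeq2 called 2 cyclase and phosphodiesterase genes and 0 in the other 3 lists, and limma-voom 0 in all 4. Without Etv4_KO replicate 2, edgeR called 1 cyclase or phosphodiesterase gene and 3 kinase and CREB genes there. Median log2 fold changes with FGF in control cells were -0.02, -0.03, 0.02 and 0.04 for these lists, and -0.00 over all genes.

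Some genes reported downstream of cAMP or of early signalling were called with FGF in control cells. Of 14 tested genes reported as CREB targets, 4 fell and 0 rose: Fosb fell to 282 ± 35.5 CPM in FGF-treated control cells, against 707 ± 36.1 CPM in untreated ones (log2 -1.33, SE 0.11, by edgeR, adjusted p = 3.63e-05), and Fos to 252 ± 9.01 CPM, against 549 ± 9.34 CPM (log2 -1.12, SE 0.10, by edgeR, adjusted p = 5.95e-05). Sik1 and the phosphatase gene Dusp1 were the other 2, at log2 -1.27 and -0.42. Of 28 immediate early and dissociation response genes, 7 fell and 0 rose, among them Klf4, at 54.9 ± 1.19 CPM with and 115 ± 5.35 CPM without FGF (log2 -1.07, SE 0.07, by edgeR, adjusted p = 6.22e-06). Atf3, Socs3 and Hspa1b fell by 0.78, 0.79 and 0.38 on the log2 scale. Egr1, Junb and Jun were at log2 0.41, -0.10 and -0.02 and were not called. The lists share Fos, Fosb, Junb and Dusp1, so Fos, Fosb and Dusp1 count in both. Both lists were chosen with earlier results of these data known. Part of the second was known from them to include genes that FGF lowered. The counts that fell are therefore not independent support. At an unadjusted p under 0.05, in either direction, edgeR held 10 of the 14 CREB targets and 14 of the 28 genes. DESeq2 called 2 higher and 7 lower in the second list, and 1 higher and 4 lower among CREB targets. Without Etv4_KO replicate 2 edgeR called 5 higher and 7 lower in the second list, and 1 higher and 6 lower among CREB targets. On the compared groups alone it called 4 higher in the second list and 2 higher among CREB targets. With the replicate block it called 1 CREB target higher. The absence of rises thus depended on the fit. Genes of this list are also raised when tissue is dissociated, and all gels were digested. Whether digestion differed between groups was not tested. The NR4A genes are immediate early genes too, and their levels were measured after the same digestion. What part digestion had in the levels of Nr4a1 and Nr4a2 was not tested.

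In knockout cells with FGF, 1 of the 14 CREB targets was called. Nfil3 fell (log2 -0.66, SE 0.12, by edgeR, adjusted p = 0.00977), and the call was lost without Etv4_KO_FGF replicate 2 or 3 (by edgeR, adjusted p = 0.0603 and 0.0539). Fosb, Fos and Sik1 were at log2 -0.43, -0.30 and -0.66 and were not called. Of the immediate early and dissociation genes 3 fell and 2 rose: Klf4 was at log2 -0.52 (SE 0.07, by edgeR, adjusted p = 0.0012), Atf3 at -0.79 (SE 0.11, by edgeR, adjusted p = 0.00176) and Socs3 at -0.44, with Ier5 and Jun at 0.40 and 0.36. Without Etv4_KO_FGF replicate 2 or 3, 1 rose. DESeq2 called 6 lower and 2 higher in this list and 5 lower and 1 higher among CREB targets. Without Etv4_KO replicate 2 the counts were 9 lower and 6 higher, and 7 lower and 1 higher among CREB targets; without Etv4_KO replicate 1, 2 CREB targets were lower and 1 was higher. Fitted on the 2 compared groups alone, 0 genes of either list were called. The difference between genotypes in FGF response was not called for any of the 43 list and likeness genes named by rule, with 2 of 12079 genes called in all (0.0166%).

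**Figure D5:**
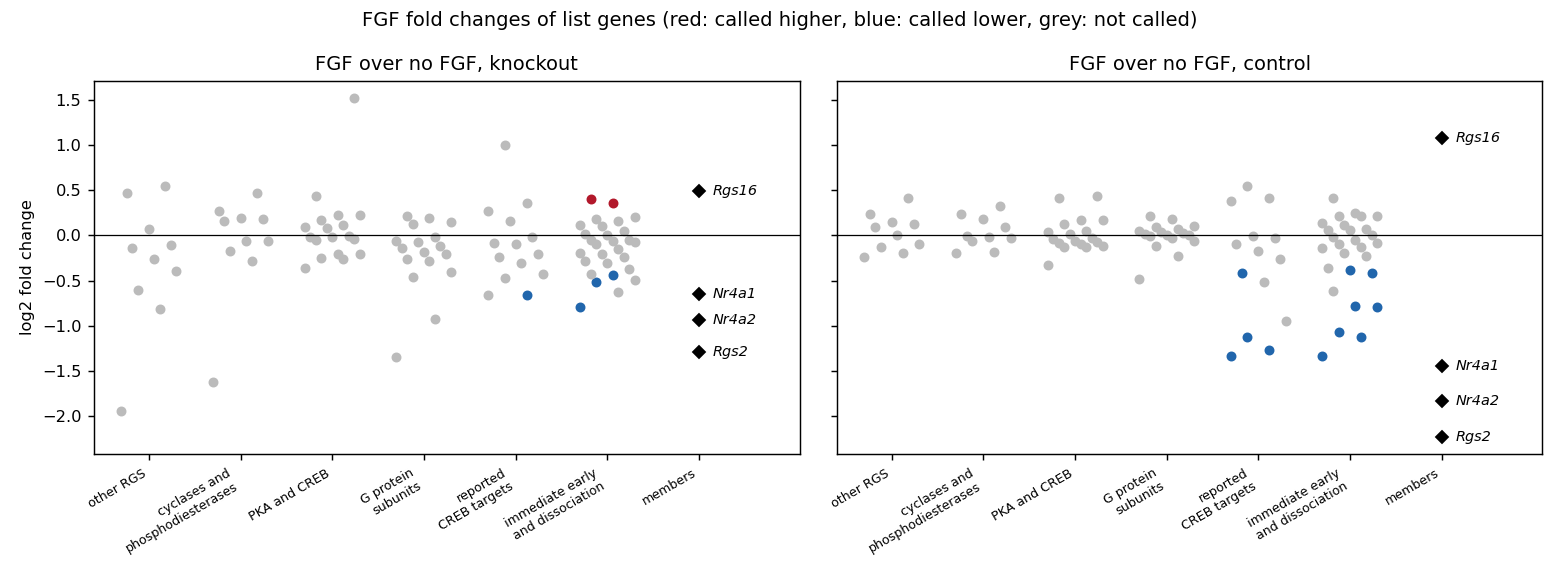
Log2 fold change with FGF (y axis) of the tested genes of 6 lists in knockout cells (left) and control cells (right); red and blue mark genes called higher and lower by edgeR, grey genes not called, and black diamonds the 4 tested members, which have no test here. In control cells the blue points are confined to the CREB target and immediate early lists, which share genes. All lists were chosen with earlier results of these data known.

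FGF calls among feedback genes and other nuclear receptors depended on the fit. The main edgeR fit called 0.488% of all genes in control and 2.42% in knockout cells. Of 14 ERK feedback genes it called Phlda1 higher in control cells (log2 0.36, SE 0.07, by edgeR, adjusted p = 0.0444). That call was lost with upper-quartile scaling (by edgeR, adjusted p = 0.0629). It was also lost whenever 1 of the 9 libraries outside Etv4_KO was left out (by edgeR, adjusted p = 0.0588 to 0.255). At an unadjusted p under 0.05 edgeR held 7 of the 14. DESeq2 called 4 higher, as did edgeR on the compared groups alone, and without Etv4_KO replicate 2 edgeR called 6 higher. Those fits called 143, 228 and 343 genes in all. In knockout cells Spry1 fell (log2 -0.63, SE 0.08) and Spred3 rose (0.54, SE 0.08), with an edgeR adjusted p = 0.0012 and 0.00305; without Etv4_KO replicate 2, 2 ERK feedback genes rose there. Of 21 other nuclear receptors 0 were called with FGF in control cells by edgeR or limma-voom (3 at an unadjusted p under 0.05, and 3 by DESeq2). Without Etv4_KO replicate 2, edgeR called 2 higher and 2 lower there, and 1 higher and 3 lower in knockout cells; without Etv4_KO replicate 3 it called 2 lower in knockout cells. In the fit over all libraries Vdr, the vitamin D receptor, fell in knockout cells (log2 -0.79, SE 0.12, by edgeR, adjusted p = 0.0038). The calls of Spry1, Spred3 and Vdr in knockout cells were lost when those 2 groups were fitted alone. Of 11 tested G protein-coupled receptors for prostaglandins, adenosine, lysophospholipids and other ligands, 0 were called with FGF in knockout cells by edgeR, DESeq2 or limma-voom, with 1 at an unadjusted p under 0.05.

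Between genotypes, genes of every list were called. Among 10 tested RGS genes other than the members, 4 rose and 2 fell without FGF and 1 rose and 3 fell with FGF. Without control replicate 1 or 3, 2 rose without FGF. Rgs20 had 1 count in knockout and 148 in control cells without FGF, which is 137-fold lower (95% interval from counting alone, 24.2 to 5450), and with FGF it was at least 52.4-fold lower, at 0 and 168 counts, against a floor of 3 counts over the group. Rgs14 was at 0.0934 ± 0.162 CPM in knockout and 3.59 ± 0.697 CPM in control cells without FGF (log2 -5.04, SE 0.56, by edgeR, adjusted p = 1.4e-05) and at log2 -5.40 (SE 0.61) with FGF. The RGS genes next to Rgs2 on chromosome 1, Rgs1, Rgs13, Rgs18 and Rgs21, had 0 counts in every library, and Rgs8, beside Rgs16, had at most 8.

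Of 10 cyclases and phosphodiesterases 5 fell and 2 rose without FGF, and 4 fell and 0 rose with FGF. The cAMP phosphodiesterase gene Pde4a fell by 0.79 and 0.67 on the log2 scale without and with FGF (SE 0.11 each), and Pde4c by 2.05 and 2.36. The cyclase gene Adcy7 fell by 0.62 and 0.30. Without control_FGF replicate 1 or Etv4_KO_FGF replicate 1, 2 fell with FGF. Without any 1 control library the number that rose without FGF was at most 1. In the protein kinase A and CREB list 4 rose and 4 fell without FGF and 2 rose and 6 fell with FGF (5 rose without Etv4_KO replicate 2). Prkar1a, the inhibitory regulatory subunit, fell to 271 ± 28.1 CPM in knockout cells, against 425 ± 17.7 CPM in control cells without FGF (log2 -0.65, SE 0.08, by edgeR, adjusted p = 2e-05), and by 0.70 (SE 0.08) with FGF. Rapgef3, the cAMP-activated exchange factor Epac1, rose by 0.51 and 0.57 (SE 0.09 each). Of 17 G protein subunits 6 rose and 6 fell without FGF and 3 rose and 6 fell with FGF; without Etv4_KO replicate 2, 5 rose with FGF. Gng2, a gamma subunit, was at log2 -3.30 and -4.73, Gnb2 rose by 0.81 without FGF and Gnb5 fell by 1.18 with FGF. Of the 11 receptors 7 fell and 0 rose in each condition, 4 with FGF without control_FGF replicate 2 or 3. Ptger1, a prostaglandin E2 receptor, fell by 1.88 without FGF and Adora1, an adenosine receptor, was at log2 -1.77 and -1.74, each near 1 CPM or lower in knockout cells; Ednra had 0 counts in knockout cells with FGF and 29 in control cells, at least 9.05-fold lower.

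The downstream genes also differed by genotype. Of 14 CREB targets 5 rose and 4 fell without FGF and 7 rose and 3 fell with FGF (5 fell without Etv4_KO replicate 2). Dusp1 rose to 641 ± 35.2 CPM in knockout cells, against 155 ± 6.8 CPM in control cells with FGF (log2 2.05, SE 0.07, by edgeR, adjusted p = 2.34e-10), and by 1.48 (SE 0.07) without FGF. Areg, an EGF receptor ligand, rose by 1.83 and 1.38 on the log2 scale without and with FGF. Like Nr4a1, Fosb and Klf4 were lower in knockout cells without FGF (log2 -0.57 and -0.34) and higher with FGF (0.33 and 0.21), and all 4 differences were called. Both were among the genes most like Nr4a1 over these libraries, which in part sets this shared pattern. The difference between genotypes in their FGF response was not called. Of 28 immediate early and dissociation genes 13 rose and 8 fell without FGF and 16 rose and 6 fell with FGF, with Cyr61 higher by 1.34 and 1.25. The ERK feedback list, which holds Etv4 itself, had 14 tested genes: 7 were called higher and 5 lower without FGF, 5 higher and 6 lower with FGF, including Dusp5 at 1.39 without FGF, Spry1 at -1.26 with FGF and Etv5 at -0.90 and -1.06. Of 21 other nuclear receptors 5 rose and 7 fell without FGF and 4 rose and 8 fell with FGF (8 rose without Etv4_KO replicate 2), with Vdr at -2.08 and -2.44 and Ppard at 1.13 and 1.00. Shares of each list called, from 40% to 85.7%, stood beside the 45.8% and 40.3% of all genes given above.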

How the data were processed

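RNA was measured by stranded polyA sequencing, per the labels' protocols. The authors deposited whole-number read counts for each gene symbol, without normalization; the submitters' processing notes name STAR 2.7.9a, FastQC 0.11.9, R 4.1.1 and featureCounts, and list mm10 and hg38. For the annotation, the strand setting and reads with several positions, the sources used here give nothing. Of 31017 symbols 13134 had no count. Groups follow the sample titles.

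The main test was edgeR's quasi-likelihood F-test (edgeR 4.0.16, R 4.3.3) on all 12 libraries (filterByExpr, TMM, 1 mean per group, 8 residual degrees of freedom), two-sided; a gene was called where p, adjusted over 12079 genes by Benjamini-Hochberg, was under 0.05. SE is the absolute log2 fold change over the square root of F. No label calls replicates separate cultures: p-values reflect the spread between libraries, perhaps only technical. Alternatives were limma-voom (limma 3.58.1), DESeq2 1.42.0, upper-quartile or RLE scaling, other filters, a replicate block, compared groups alone and leaving out each library.

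The members and lists were chosen with earlier results of these data known. Named by rule were the members, Etv4, the 5 genes most like each tested member, and per list and comparison the 2 called genes with the smallest adjusted p; other list genes named, such as Sik1, Egr1 and Jun, were picked after their values were seen. A receptor result for FGF in control cells is not reported here.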

Additional observations from a re-analysis of the deposited data

Results flagged for a closer look

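Nr4a1 was picked out because its genotype difference turned with FGF: all 3 knockout libraries lay below the 3 control libraries without FGF (log2 -0.29) and above them with FGF (log2 0.50). The difference between these, log2 0.79 (SE 0.13), ranged from 0.74 to 0.89 with 1 library left out. It was not tested, because it holds the FGF contrast that chose the gene. The share of all genes that turned in this way was not counted. The call of Nr4a1 without FGF was lost in 3 of the fits with 1 library left out.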

How the results depend on the processing

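Genotype differences of Rgs2 and Nr4a2 kept their direction and side of the threshold under every alternative run, at log2 -2.22 to -1.97 and -1.18 to -0.91 without FGF and -1.28 to -1.01 and -0.25 to -0.12 with FGF when 1 library was left out. Rgs16 without FGF ranged from 0.78 to 0.99 and Nr4a1 with FGF from 0.44 to 0.59, all called. Nr4a1 without FGF ranged from -0.34 to -0.26 and lost its call in 3 of 12 such fits, and Rgs16 with FGF ranged from 0.28 to 0.38 and lost it in 4; with upper-quartile scaling Rgs16 was at 0.28 and missed. The FGF response difference of Rgs16 ranged from -0.65 to -0.44. Genes called for FGF numbered 59 in control and 292 in knockout cells in the fit over all libraries, 143 and 730 with DESeq2, 228 and 23 on the compared groups alone, and 25 to 343 and 120 to 950 with 1 library left out, the highest without Etv4_KO replicate 2. The FGF fold change of Etv4 in control cells, -0.01, ranged from -0.04 to 0.04 with 1 library left out, 0.04 being the value without control_FGF replicate 1. The cause of these shifts was not tested. Same-numbered libraries shared only a number (correlations of their deviations from group means between -0.0874 and 0.0777); with the replicate block 5705, 4944, 52 and 269 genes were called for the genotype without and with FGF and for FGF in control and knockout cells, against 5533, 4862, 59 and 292, and no call of a member changed. Nr4a3, at 0 to 10 counts per library, was too low for any comparison.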
